A study of Mus musculus with 12 samples.

Results

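Oxidative phosphorylation is carried out by 5 protein complexes of the inner mitochondrial membrane. Complex I takes electrons from NADH and complex II from succinate, complex III passes them to cytochrome c, complex IV reduces oxygen, and complex V uses the resulting proton gradient to make ATP. Most of their subunits are encoded in the nucleus, and those nuclear genes are described here in the cerebellum, a tissue whose Purkinje and granule neurons depend on mitochondrial ATP. The members are all probe sets whose annotation names exactly 1 gene with a symbol beginning Ndufa, Ndufb, Ndufc, Ndufs, Ndufv, Sdh (a to d), Uqcr, Atp5 or Cox4 to Cox8. They number 156 of the 22626 probe sets that are not array controls, and they stand for 84 of the 12393 genes named by such single-gene probe sets. A further 8 probe sets carry several symbols of which 1 meets the rule, and these were left out.

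The study compared whole cerebellum of mice lacking the cholesterol transporter NPC1 with that of wild-type mice on a BALB/c background. There were 4 groups of 3 individual animals, Npc1+/+ and Npc1-/- at postnatal day 21 (P21) and again at postnatal day 49 (P49), with 1 Affymetrix array per animal. Ages are those of the time point label, whereas the treatment text of every sample names P21. The labels name no other allele, transgene or treatment, and no group was pooled. All animals are labelled female except replicate 1 of the P49 null group. The level of Npc1 itself was lower on every null array than on any wild-type array at both ages. Null minus wild type was -1.95 ± 0.37 (SE) on the log2 scale in the younger animals, with an adjusted p of 0.101, and -1.43 ± 0.37 (0.0591) in the older ones. Whether its probes lie within the altered sequence is not given in the sources used here.

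Intensities are given as quantile-normalised log2(intensity + 16), so that a difference of 1 is a doubling on that scale. Each gene is read from its brightest probe set, and a gene was tested when that probe set's mean reached the 40th percentile of all probe sets. Levels of different genes cannot be set against each other, because probes differ in how well they bind. Of the 84 genes, 80 passed the filter, and these 80 also passed when any 1 of the 4 groups was left out of the mean. Whether any of the remaining genes would then pass was not checked. They comprise 6 core and 28 accessory subunits of complex I, 5 complex I assembly factors caught by the symbol rule (Ndufaf1, 3, 4, 5 and 7), 4 subunits of complex II, 8 of complex III, 12 of complex IV, and 5 F1 and 12 other subunits of complex V. Ndufa4 is counted with complex I by its symbol, although its protein is now placed in complex IV. A gene is said to have risen or fallen where limma's adjusted p over all 7835 genes tested was under 0.05, and errors on differences are standard errors from that fit with 3 arrays per group. The number of arrays limits the precision: the median half-width of a member's 95% confidence interval was 0.21 at P49.

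The 4 genes that did not pass the filter are all complex IV isoforms known from other tissues. Cox4i2 is the lung isoform of subunit 4, and Cox6a2, Cox7a1 and Cox8b are isoforms of heart and skeletal muscle. Their mean deposited intensities over the 12 arrays were 578, 751, 956 and 432. The filter was set on another measure, the mean normalised log2 value, at 9.93, which corresponds to an intensity of 959. All 4 genes lay below it and were not tested. The widely expressed partners all passed: Cox4i1, Cox6a1, Cox7a2 with the related Cox7a2l, and Cox8a. In the muscle marker list, 1 of 10 genes passed the filter.

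On 3 of the P21 arrays, the female-specific transcript Xist was low although the animals are labelled female: replicate 2 of the wild-type group, and replicates 2 and 3 of the null group. Replicate 2 of the P21 null group also stood apart, over the whole table and in both directions. It had the lowest value of all 12 arrays in 26 of the 80 members (32.5%), against 23.5% of all genes tested. Its value was the highest in 9 members (11.2%), against 24.4% of all genes. The P49 null array labelled male was not among the arrays with low Xist, so its label is in doubt too. The counts below are also given without the 3 P21 arrays with low Xist. These are called the 3 doubtful arrays, or the 3 arrays of doubtful sex label, and the array labelled male was kept. That leaves 2 wild-type and 1 null array at P21, and 81 members then passed the filter.

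Only 1 of the 80 genes passed the test for genotype at P49. Cox6b2, the testis-type isoform of complex IV subunit 6B, was 2.17-fold lower in null cerebellum. No member was higher at P49 and none passed the test in either direction at P21. Of the other 79 genes, 67 had a negative difference at P49, with a median of -0.11. With Cox6b2 counted it was 68 of 80. Over all genes tested, 54.1% of differences were negative and the median was -0.02. In the whole table, 1.14% of genes were called lower and 1.52% higher at P49, so that 1 member of 80 called lower (1.25%) is a share near the background.

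**Figure D1:**
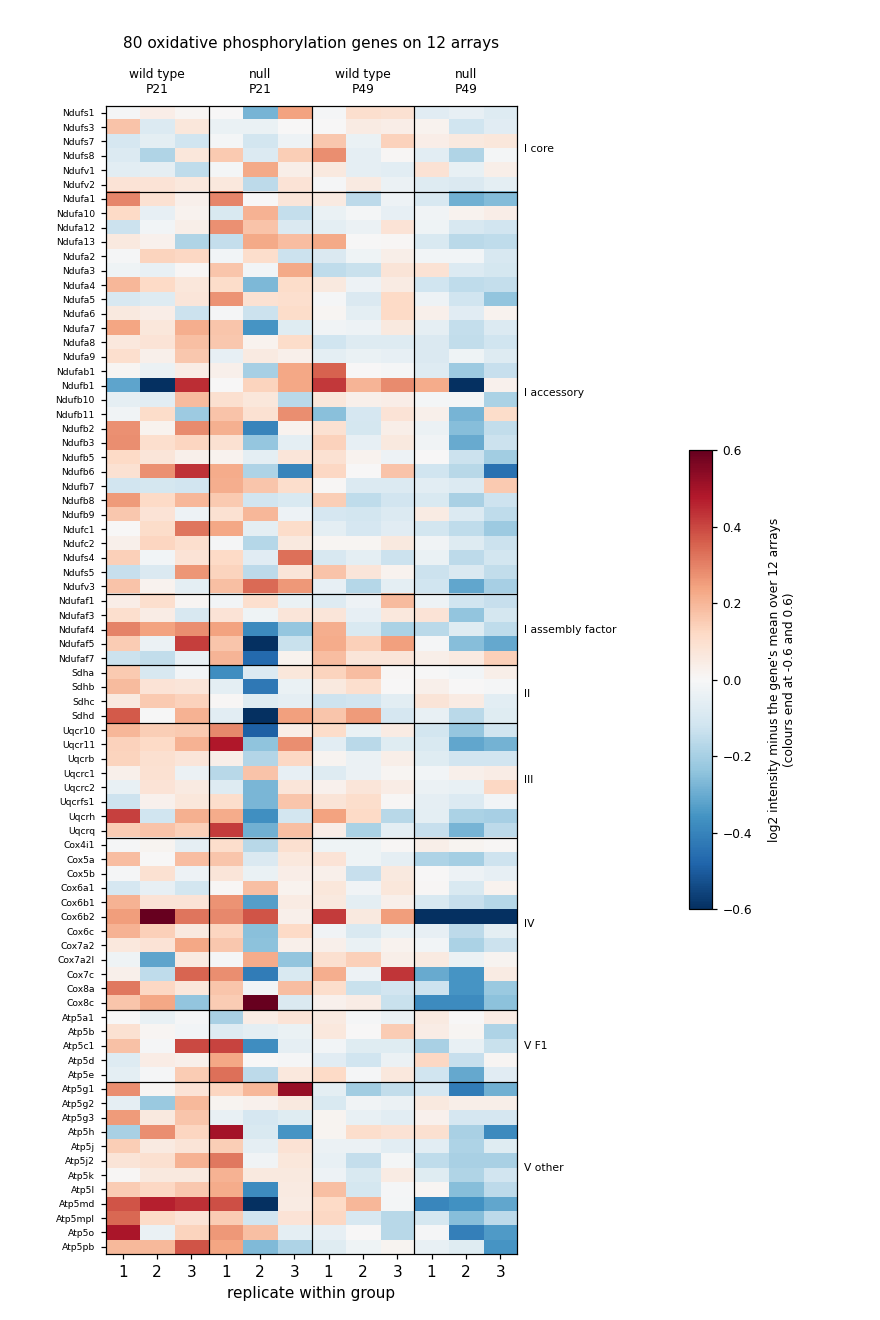
Each row is 1 of the 80 tested genes, ordered by complex, and each column is 1 of the 12 arrays, ordered by group. Colour gives log2 intensity minus the gene's own mean over the 12 arrays, from -0.6 (blue) to 0.6 (red), and the 3 P49 null columns are blue in most rows, with Cox6b2 at the end of the scale in all 3 of them.

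Cox6b2 read 12.18, 11.82 and 12.01 in the wild-type animals at P49 and 11.05, 10.93 and 10.68 in the null animals. The groups did not overlap, and every P49 null array lay below every other array of the study. At P21 its levels were 12.01, 12.39 and 12.08 in wild-type and 12.05, 12.14 and 11.79 in null animals, and there the groups overlapped. The genotype difference was -1.12 ± 0.16 at P49 (95% confidence interval -1.46 to -0.77, adjusted p = 0.00106) and -0.17 ± 0.16 at P21 (adjusted p = 0.695). The test of the change in genotype difference between ages gave -0.95 ± 0.23 with adjusted p = 0.0998, so the difference between ages did not pass the threshold. Between P21 and P49 Cox6b2 fell in null animals by 1.11 on the log2 scale (SE 0.16, adjusted p = 0.00128). In wild-type animals its age difference was -0.16 ± 0.16 (adjusted p = 0.832). The call at P49 held under all 24 alternative settings, with adjusted p between 0.000371 and 0.0101.

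Cox6b1, the widely expressed partner of Cox6b2, did not pass the test. Its levels at P49 were 16.83, 16.71 and 16.80 in wild-type and 16.68, 16.63 and 16.60 in null animals. All null values lay below the wild-type values, but by a small amount: -0.14 ± 0.12, with an adjusted p of 0.776. At P21 it read 16.98, 16.85 and 16.85 in wild-type animals and 17.04, 16.44 and 16.82 in null animals, which overlapped. A second Cox6b1 probe set gave -0.05 ± 0.12 at P49. Cox6b2 has a single probe set, so its result could not be set against another.

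The marker list for Purkinje cells moved in the same samples. At P49, 10 of its 13 tested genes were called lower in null animals and the list's median difference was -0.92. Per array, the median of the Purkinje list stood between -0.86 and -0.26 in P49 null animals and between 0.21 and 0.30 in P49 wild-type animals, relative to each gene's mean over all arrays. Pcp2, a Purkinje cell gene, read 16.93, 16.35 and 16.61 in the P49 null group against 17.25, 17.25 and 17.27 in wild type. All 10 tested microglial markers were called higher at P49, with a median difference of 3.05, whereas none of 8 granule neuron markers was called. Of 10 tested astrocyte and Bergmann glia genes, 2 were called higher and 0 lower, with a list median of 0.16. The 2 were Gfap, at 3.3 ± 0.17, and Aqp4, at 0.94 ± 0.13. The part of these shifts in the level of Cox6b2 or of the other subunits was not tested. In whole cerebellum, fewer cells of a type and less RNA per cell cannot be told apart.

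**Figure D2:**
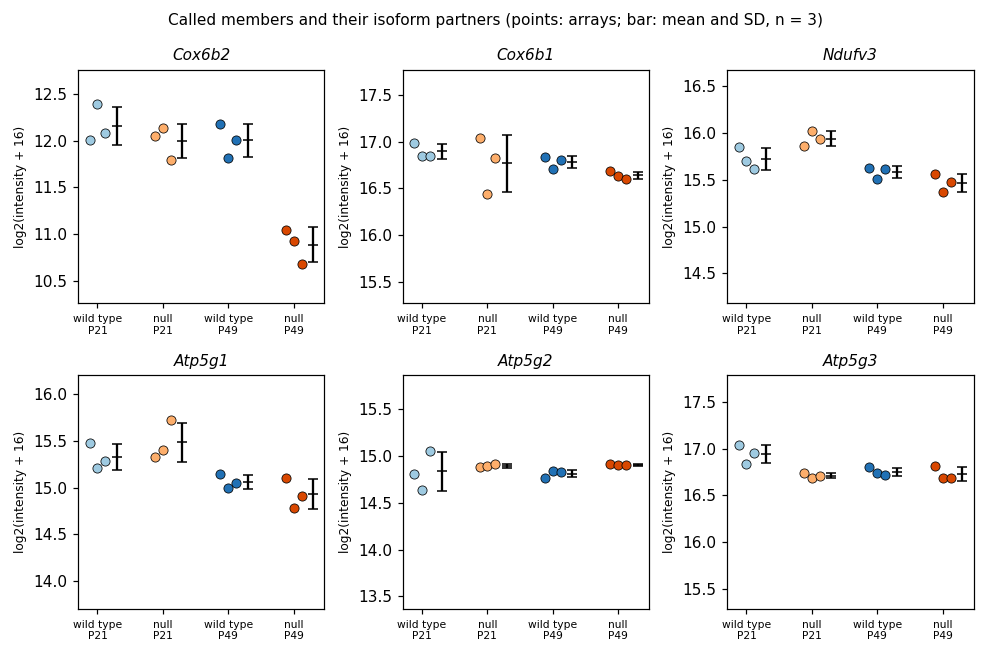
Points are the 3 arrays of each group and bars are group means with SD, on the log2(intensity + 16) scale. The P49 null arrays of Cox6b2 lie between 10.68 and 11.05, apart from all its other arrays, and no such gap is seen for Cox6b1, Atp5g2 or Atp5g3.

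The promoter windows of the Cox6b and Atp5g genes are printed because these are the isoform sets in which 1 member was called and its partners were not. Each window holds 300 bases, 250 before and 50 after the annotated start, from RefSeq (GRCm38.p6), written 5′ to 3′ on the gene's own strand. Capitals mark matches, on either strand, to the 5 motifs described below. All 5 lie on the minus strand: Cox6b2 at chr7:4753045-4753344, Cox6b1 at chr7:30626065-30626364, Atp5g1 at chr11:96075582-96075881, Atp5g2 at chr15:102670998-102671297 and Atp5g3 at chr2:73911277-73911576.
Cox6b2: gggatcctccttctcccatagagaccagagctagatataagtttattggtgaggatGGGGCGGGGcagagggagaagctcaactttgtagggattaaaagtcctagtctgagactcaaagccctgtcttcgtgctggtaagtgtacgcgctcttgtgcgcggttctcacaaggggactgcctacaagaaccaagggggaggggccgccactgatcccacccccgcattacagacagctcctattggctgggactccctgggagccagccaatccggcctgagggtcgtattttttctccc
Cox6b1: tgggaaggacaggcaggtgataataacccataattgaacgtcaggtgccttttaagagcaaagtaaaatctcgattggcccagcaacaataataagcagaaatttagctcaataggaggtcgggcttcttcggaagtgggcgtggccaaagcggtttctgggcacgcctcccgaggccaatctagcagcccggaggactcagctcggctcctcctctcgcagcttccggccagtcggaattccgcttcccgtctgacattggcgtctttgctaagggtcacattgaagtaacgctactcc
Atp5g1: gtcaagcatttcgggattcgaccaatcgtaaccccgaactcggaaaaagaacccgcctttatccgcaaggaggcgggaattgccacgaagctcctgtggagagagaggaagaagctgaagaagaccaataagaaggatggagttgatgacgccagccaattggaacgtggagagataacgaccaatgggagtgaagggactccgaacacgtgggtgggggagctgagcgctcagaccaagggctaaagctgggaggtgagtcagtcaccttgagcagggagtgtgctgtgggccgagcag
Atp5g2: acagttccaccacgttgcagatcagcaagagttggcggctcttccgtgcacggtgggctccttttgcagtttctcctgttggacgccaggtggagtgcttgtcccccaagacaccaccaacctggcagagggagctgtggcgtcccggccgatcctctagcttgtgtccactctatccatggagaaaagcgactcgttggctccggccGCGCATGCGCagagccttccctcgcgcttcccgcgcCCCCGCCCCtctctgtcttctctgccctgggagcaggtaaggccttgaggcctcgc
Atp5g3: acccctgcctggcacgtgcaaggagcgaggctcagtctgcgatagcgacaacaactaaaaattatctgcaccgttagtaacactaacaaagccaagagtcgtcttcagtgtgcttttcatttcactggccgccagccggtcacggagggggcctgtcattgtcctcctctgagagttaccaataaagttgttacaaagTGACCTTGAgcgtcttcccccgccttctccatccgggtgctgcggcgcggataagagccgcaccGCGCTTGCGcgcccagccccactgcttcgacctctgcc
The Cox6b2 window held 1 match, to the SP motif, and those of Cox6b1 and Atp5g1 held none. The Atp5g2 window held 2 overlapping NRF1 matches, 1 on each strand, and an SP match. The Atp5g3 window held an NRF1 match and, on the opposite strand, an ERR match.

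Nuclear genes of the respiratory chain are known as targets of the factors NRF1, GABP, YY1, SP1 and the estrogen-related receptors, so their motifs were counted in all windows that could be matched. Of the 84 members, 70 had a promoter entry by symbol. The NRF1 motif GCGCNTGCG occurred in 23 of these 70 genes (32.9%), against 7.12% of all 27025 genes with a window. The YY1 motif AANATGGCG was found in 12.9% of the members and 2.76% of all genes. For the GABP motif CCGGAAGT the shares were 7.14% and 4.31%, and for the SP motif GGGGCGGGG they were 17.1% and 12.9%. The ERR motif TNAAGGTCA was present in 2 members, Atp5g3 and Sdhd, which is 2.86% against 1.43%. At least 1 of the 5 motifs was present in 61.4% of members and 23.9% of all genes, and the members' windows were also richer in G and C, with a median of 58.7% against 52.7%. Both strands were searched, no motif contains another, and a match is a description of the letters only.

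Among the core subunits of complex I, which carry the flavin and iron-sulphur centres, 5 of 6 differences at P49 were negative and the median was -0.08. The exception was Ndufv1, the flavin-binding subunit, at 0.05. Ndufs7, an iron-sulphur subunit, read 15.17, 14.97 and 15.15 in wild-type and 15.05, 15.07 and 15.08 in null animals at P49, which overlapped, and its probe sets gave -0.03 ± 0.08 and -0.13 ± 0.10. None of the 6 was called in any comparison.

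The accessory subunits of complex I, which surround the core and are needed for its assembly, showed 23 of 28 negative differences at P49 with a median of -0.10. In 9 of the 28 the P49 groups did not overlap, null being lower, a larger share than the 12% of all genes tested. Ndufb6, of the membrane arm, read 14.82, 14.70 and 14.87 in wild-type and 14.58, 14.53 and 14.25 in null animals. Its difference was -0.35 ± 0.15 (adjusted p = 0.362), and a second probe set gave -0.09 ± 0.11. Ndufab1, the mitochondrial acyl carrier protein, read 15.37, 15.02 and 15.01 in wild-type and 14.94, 14.80 and 14.88 in null animals. Here the difference was -0.26 ± 0.12 (adjusted p = 0.425), and its other probe sets gave -0.25 ± 0.22 and -0.04 ± 0.63. Both genes thus had non-overlapping groups and did not pass the test. The 5 assembly factors were all negative at P49, from -0.39 for Ndufaf5 to -0.03, and none was called.

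Complex II, which is also succinate dehydrogenase of the tricarboxylic acid cycle, had 3 of 4 negative differences at P49 and a median of -0.07. The exception was Sdhc, a membrane anchor, which had the largest positive difference of the 80 genes at P49. Its levels were 14.11, 14.12 and 14.17 in wild-type and 14.31, 14.28 and 14.17 in null animals, a difference of 0.12 ± 0.08 (adjusted p = 0.692), and its second probe set gave 0.06 ± 0.22. Sdha, the flavoprotein subunit, read 15.58, 15.63 and 15.45 in wild-type and 15.44, 15.43 and 15.48 in null animals, with -0.10 ± 0.11 and -0.12 ± 0.08 from its probe sets. In complex III, 7 of 8 differences were negative with a median of -0.12. In 3 of these 8 genes all null arrays lay below the wild-type arrays, a larger share than the 12% of all genes. The 3 were Uqcr10, Uqcrb and the Rieske iron-sulphur protein gene Uqcrfs1.

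Complex IV had 11 of 12 negative differences at P49, with a median of -0.13 and only Cox4i1 above 0, at 0.04. Cox4i1, the subunit 4 isoform of most tissues, read 16.89, 16.89 and 16.92 in wild-type and 16.95, 16.93 and 16.92 in null animals. Cox8a, the widely expressed subunit 8, read 16.52, 16.28 and 16.30 in wild-type and 16.29, 16.06 and 16.19 in null animals. Cox7a2 read 16.92, 16.85 and 16.91 against 16.87, 16.70 and 16.76, and its relative Cox7a2l, a factor of supercomplex assembly, read 14.23, 14.28 and 14.17 against 14.19, 14.10 and 14.15. The groups overlapped in these last 3 genes. Over the 12 genes of complex IV, all null arrays lay below the wild-type arrays in 4, against 12% of all genes tested. They lay above in 1, against 11.2%, which was Cox4i1 on its values before rounding. Other probe sets gave -0.06 ± 0.11 for Cox8a, -0.23 ± 0.11 for Cox7a2, and 0.18 ± 0.09 and 0.05 ± 0.09 for Cox7a2l. Cox8c, like Cox6b2 a testis-type isoform, was chosen for mention after its values were seen. It read 11.01, 11.03 and 10.85 in wild-type and 10.61, 10.61 and 10.74 in null animals at P49, a difference of -0.31 ± 0.22 that did not pass the test (adjusted p = 0.716).

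In complex V, the F1 head that makes ATP had 3 of 5 negative differences at P49 and a median of -0.07. The remaining subunits, which form the membrane part and the stalk, had 11 of 12 negative differences and a median of -0.13. Atp5md, a small membrane subunit, read 16.03, 16.11 and 15.90 in wild-type and 15.52, 15.55 and 15.60 in null animals at P49. Its difference of -0.46 ± 0.23 had an adjusted p of 0.504. Replicate 2 of the P21 null group stood far from the other arrays for this gene, at 14.95, and without that array Atp5md was called lower at P49, as it was with the P49 arrays alone. Atp5d, an F1 stalk subunit, read 15.73, 15.68 and 15.76 in wild-type and 15.92, 15.66 and 15.81 in null animals, and its probe sets disagreed in sign at 0.07 ± 0.09 and -0.06 ± 0.09. Atp5g2 was 0.09 ± 0.10 higher in null animals without overlap, at 14.92, 14.90 and 14.90 against 14.77, 14.84 and 14.83, and was not called (adjusted p = 0.828).

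**Figure D3:**
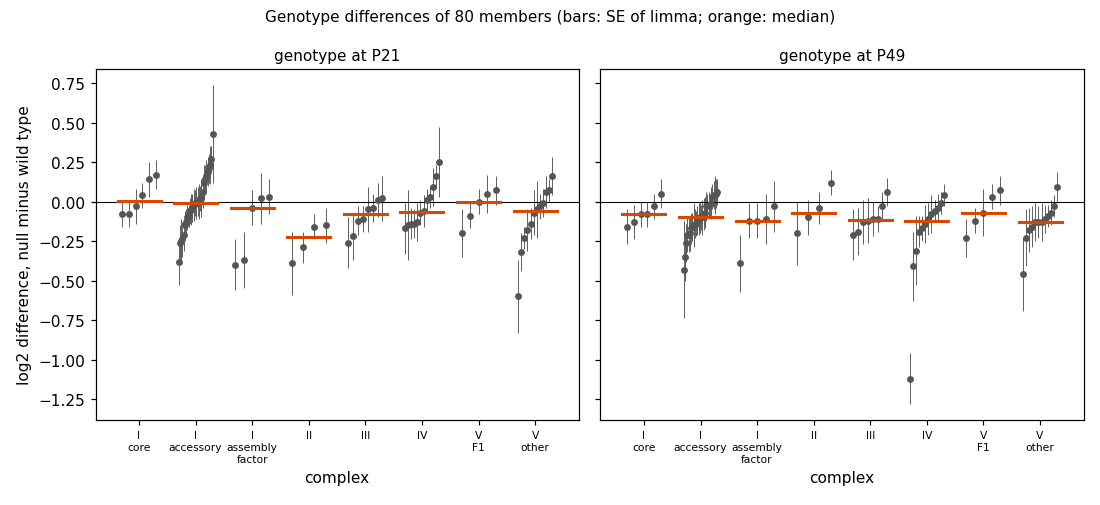
Each point is the log2 difference, null minus wild type, of 1 of the 80 genes, with its standard error, at P21 (left) and P49 (right). Orange lines are the medians of each complex, which at P49 lie between -0.13 and -0.07, and Cox6b2 is the single point near -1.12.

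The shift at P49 was small, and it was shared by many genes. In 23 of the 80 (28.7%) all null arrays lay below all wild-type arrays, against 12% of all genes tested, and in 2 (2.5%) they lay above, against 11.2%. The mean of the P49 null group was the lowest of the 4 group means in 55 members (68.8%) and in 30.4% of all genes. That share mixes age with genotype, since 54 of the 80 differences with age in wild-type animals were negative too. Apart from Cox6b2, no member differed by more than 0.5 on the log2 scale at P49, a size reached by 6.28% of all genes. Only 4 members (5%) had an unadjusted p under 0.05 with a negative difference, against 5.19% of all genes, and none with a positive one, against 6.13%. With the 3 doubtful arrays left out, 14 of 81 (17.3%) had such a p with a negative difference, against 8.04% of all genes, and none with a positive one, against 8.49%. Non-overlap at P49 was then found in 23 with null lower (28.4%, against 12%) and in 2 with null higher (2.47%, against 11.2%). The members varied less between replicates than other genes did, with a median residual SD of 0.119 against 0.194. Of the 42 genes with more than 1 tested probe set, 32 had all their probe sets on the same side of 0. As 122 of the 141 tested member probe sets were negative, such agreement would be frequent in any case and adds nothing to that count.

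The negative direction at P49 held under other scalings: 69 of 80 differences were negative on the values as deposited and 79 when arrays were centred on their medians. Centring moved the median of all genes to -0.09 and that of the members to -0.22. Without the 3 arrays of doubtful sex label it was 68 of 81. The same arrays' RNA controls gave 3′ over 5′ log2 ratios of -0.43 to -0.27 for Gapdh in P49 null and -0.40 to -0.25 in P49 wild-type animals. For β-actin these ratios were 0.44 to 0.48 in null and 0.57 to 0.63 in wild-type animals, so that they did not overlap. Their part in the shift was not tested.

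At P21 no member was called in either direction. Among all genes tested, 0.0511% of genes were called higher and 0.0128% lower. Differences were negative in 51 of 80 members against 50.7% of all genes, but this count fell to 32 on the values as deposited, to 24 with arrays centred on their medians, and to 43 without replicate 2 of the null group. It was 39 of 81 without the 3 doubtful arrays. No direction can therefore be given for the members as a group at this age. At an unadjusted p under 0.05, 3 members were higher (3.75%, against 5.11% of all genes) and 8 lower (10%, against 4.98%). The groups did not overlap in 5 members with null higher (6.25%, against 6.18% of all genes) and in 6 with null lower (7.5%, against 5.6%). Without the 3 doubtful arrays, 6 of 81 were higher at an unadjusted p under 0.05 (7.41%, against 3.69%) and 3 lower (3.7%, against 3.57%). The single null array left then lay above both wild-type arrays in 27 members (33.3%, against 35.6%) and below both in 24 (29.6%, against 30.6%).

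The lower members with the smallest p at P21 were in complexes V and II. Atp5g3, 1 of 3 genes that encode the same mature c subunit of the membrane rotor, read 17.04, 16.84 and 16.95 in wild-type and 16.74, 16.68 and 16.71 in null animals. The groups did not overlap and the difference was -0.23 ± 0.07 (adjusted p = 0.362), but it was 0.01 with arrays centred on their medians. Sdhb, the iron-sulphur subunit of complex II, read 15.49, 15.38 and 15.37 against 15.24, 14.87 and 15.26, a difference of -0.29 ± 0.10 (adjusted p = 0.420). All 4 genes of complex II had negative differences at P21, with a median of -0.22, and positive changes of that difference by P49, with a median of 0.22. Neither was called for any of the 4. Atp5pb, the stalk subunit b, read 16.40, 16.40 and 16.58 against 16.44, 15.94 and 16.02, which overlapped, and its probe sets gave -0.32 ± 0.12 and -0.18 ± 0.10.

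Those with the smallest p in the other direction were 2 accessory subunits of complex I and 1 subunit of complex IV. Ndufb7 read 15.02, 15.03 and 15.02 in wild-type and 15.35, 15.30 and 15.24 in null animals at P21. Its difference was 0.27 ± 0.08 (adjusted p = 0.364), while a second probe set gave 0.05 ± 0.09. Ndufv3, an accessory subunit next to the flavin site, read 15.85, 15.70 and 15.62 against 15.86, 16.02 and 15.94, a difference of 0.21 ± 0.09 (adjusted p = 0.470). Cox6a1, the widely expressed subunit 6A, read 17.03, 17.08 and 17.02 against 17.14, 17.31 and 17.15. It differed by 0.16 ± 0.07 (adjusted p = 0.484), but its second probe set gave -0.09 ± 0.10. In all 3 genes the groups did not overlap, and none passed the test.

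The test of whether the genotype difference changed between ages called no member, against 0.345% of all genes called higher and 0.204% lower. Changes were negative in 48 of 80 members (50.3% of all genes), which became 63 on the values as deposited and 76 with arrays centred on their medians. It was 37 without replicate 1 of the P21 null group, 65 without replicate 2 and 43 of 81 without replicate 3, so that no direction can be given for the members as a group. Leaving out the 3 doubtful arrays gave 67 of 81 (82.7%, against 54.3%). At an unadjusted p under 0.05, 1 member was positive (1.25%, against 3.88% of all genes) and 5 were negative (6.25%, against 4.56%). The 67 of 81 rested on replicate 1 as the only P21 null array left, whose members' median of 0.14 was the highest of the 12 arrays. After Cox6b2, the smallest p-values with a negative sign belonged to Ndufv3 at -0.33 ± 0.12 (adjusted p = 0.447) and Ndufa5 at -0.33 ± 0.13 (adjusted p = 0.528). Ndufa5, of the matrix arm, read 14.79, 14.81 and 14.96 in wild-type and 15.16, 14.98 and 14.99 in null animals at P21. At P49 it read 14.88, 14.80 and 15.01 against 14.86, 14.77 and 14.65. Null was thus above wild type without overlap at P21, and the groups overlapped at P49. Its second probe set gave -0.24 ± 0.13. With a positive sign, Sdhc gave 0.28 ± 0.12 (adjusted p = 0.534), its P21 values being 14.29, 14.39 and 14.37 in wild-type and 14.24, 14.16 and 14.18 in null animals, and its second probe set gave 0.39 ± 0.31.

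The comparisons between ages use the same arrays as the genotype comparisons, and are therefore not independent of them. In null animals 3 members fell from P21 to P49: Cox6b2, Ndufv3 and Atp5g1. That is 3.75% of the members, against 3.45% of all genes called lower in this comparison, and no member rose, against 2.78%. Differences were negative in 63 of 80 members (78.8%), against 51.4% of all genes, with medians of -0.11 and -0.01. On the values as deposited 70 were negative, and 79 with arrays centred on their medians. Without replicate 1 of the P21 null group it was 52 (65%) with a median of -0.04, and without replicate 2 it was 66 with a median of -0.19. The count was 67 of 81 (82.7%, against 54.8%) without the 3 doubtful arrays. In 13 members (16.2%) the P49 arrays all lay below the P21 arrays, against 12% of all genes, and in 2 (2.5%) above, against 10.5%. At an unadjusted p under 0.05, 17 members were lower (21.2%, against 11%) and none was higher, against 9.87%. Without the 3 doubtful arrays, replicate 1 was the only P21 null array left. Its median of the members, 0.14, was the highest of the 12 arrays, so the counts in that setting are set against 1 high animal. The P49 arrays then all lay below the single P21 array left in 61 members (75.3%, against 38.7%) and above it in 8 (9.88%, against 31.7%).

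Cell type markers changed with age in the same null animals. Of the Purkinje list 10 of 13 tested genes fell, with a median difference of -0.71, and all 10 microglial markers rose, with a median of 1.94. Of the oligodendrocyte and myelin list 4 of 11 fell, with a median of -0.42. Of the astrocyte and Bergmann glia list 2 of 10 rose and 1 fell, with a median of 0.31. None of 8 granule neuron markers was called. The part of these shifts in the age differences of the members was not tested.

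Ndufv3 fell by 0.47 on the log2 scale in null animals (SE 0.09, adjusted p = 0.00568). It read 15.86, 16.02 and 15.94 at P21 and 15.56, 15.37 and 15.48 at P49, and the groups did not overlap. The wild-type arrays at P49 read 15.63, 15.51 and 15.62, and the age difference in wild-type animals was -0.14 ± 0.09 (adjusted p = 0.668). The call was lost when only the 2 null groups were fitted (adjusted p = 0.0515) and without the 3 doubtful arrays (adjusted p = 0.0638).

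Atp5g1, the second of the c-subunit genes, fell by 0.55 in null animals (SE 0.12, adjusted p = 0.013). Its null levels were 15.33, 15.40 and 15.72 at P21 and 15.10, 14.78 and 14.91 at P49, without overlap. In wild-type animals it read 15.48, 15.21 and 15.28 at P21 and 15.14, 14.99 and 15.05 at P49, also without overlap, a difference of -0.26 ± 0.12 (adjusted p = 0.470). The genotype difference of Atp5g1 changed between ages by -0.29 ± 0.17 (adjusted p = 0.712), so a larger age difference in null animals was not shown. This call was lost without replicate 2 (adjusted p = 0.0844) or replicate 3 (0.0586) of the P49 null group, with the 2 null groups alone (0.090) and without the 3 doubtful arrays (0.087).

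The other c-subunit genes did not pass the test with age in null animals, although Atp5g3 did so when arrays were centred on their medians. Atp5g2 read 14.88, 14.89 and 14.92 at P21 and 14.92, 14.90 and 14.90 at P49. Atp5g3 read 16.81, 16.68 and 16.68 at P49, next to the P21 values given above. Their age differences in null animals were 0.01 ± 0.10 and 0.01 ± 0.07, with 95% confidence intervals of -0.20 to 0.22 and -0.14 to 0.17. These values moved with the processing. With arrays centred on their medians Atp5g3 was at -0.29 and called lower (adjusted p = 0.044), and on the values as deposited it was at -0.13. Atp5g2 was at -0.21 with centred arrays (adjusted p = 0.256) and at 0.46 when its probe sets were averaged (adjusted p = 0.437). The wild-type levels at P21 were 14.81, 14.64 and 15.06 for Atp5g2, and those of Atp5g3 at P49 were 16.80, 16.74 and 16.72.

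The number of members called lower with age in null animals depended on the processing and on single arrays. It was 8 on the values as deposited and 29 with arrays centred on their medians, a setting that moved the median of all genes to -0.13 and that of the members to -0.33. Without replicate 2 of the P21 null group it was 15, which included the 3 above, and without replicate 1 or 3 of that group it was 4. Without replicate 2 or 3 of the P49 null group it was 2. Without the 3 doubtful arrays it was 12, of which Cox6b2 was shared with the 3 above, and Sdha was then called higher. When each probe set was tested on its own, 6 were called, the additional ones being single probe sets of Ndufb9 (-0.30 ± 0.07), Ndufb11 (-0.31 ± 0.07) and Ndufs4 (-0.82 ± 0.18). The brightest probe sets of these 3 genes gave -0.15 ± 0.08, -0.23 ± 0.12 and -0.23 ± 0.10. The share of all genes called was not counted in these settings, so the counts have no background beside them. Leaving out the 3 doubtful arrays also left replicate 1 as the only P21 null array.

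The positive age differences in null animals with the smallest p belonged to 2 subunits of complex II and a core subunit of complex I. Sdhb was 0.18 ± 0.10 higher at P49 (adjusted p = 0.315), with 15.33, 15.30 and 15.29 there, above all its P21 null values. Ndufs7 differed by 0.11 ± 0.08 (adjusted p = 0.470), from 15.00, 14.90 and 14.98 at P21. Sdha differed by 0.14 ± 0.11 (adjusted p = 0.488), from 15.07, 15.36 and 15.51 at P21. By size, Ndufaf7, an assembly factor, lay between them at 0.16 ± 0.16 (adjusted p = 0.604). The differences of Sdhb, Ndufs7 and Sdha became negative when arrays were centred on their medians.

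In wild-type animals no member was called with age, against 0.166% of all genes called higher and 0.536% lower. Differences were negative in 54 of 80 members (67.5%, against 50.6% of all genes) and the median was -0.07. Leaving out the 3 doubtful arrays gave 53 of 81 (65.4%, against 50.3%). In 24 members (30%) all P49 arrays lay below all P21 arrays, against 11.1% of all genes, and at an unadjusted p under 0.05 10 members were lower (12.5%, against 5.51%) and 1 higher (against 4.48%). The P49 arrays all lay above the P21 arrays in 4 members (5%), against 10.4%. Without the 3 doubtful arrays, 23 of 81 were lower at an unadjusted p under 0.05 (28.4%, against 7.89%) and 2 higher (2.47%, against 7.65%). Non-overlap was then found in 30 with P49 lower (37%, against 15.8%) and in 5 with P49 higher (6.17%, against 15.2%). The membrane and stalk subunits of complex V had 11 of 12 negative differences and a median of -0.19, whereas the core of complex I had 4 of 6 positive ones and a median of 0.06. Among the markers, 7 of 11 tested oligodendrocyte and myelin genes were called lower with age in wild-type animals, and their part in these values was not tested.

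The members with the smallest p for age in wild-type animals included Atp5g3, Sdhc and Ndufa8 among the lower ones. Atp5g3 differed by -0.19 ± 0.07 (adjusted p = 0.345) and Sdhc by -0.22 ± 0.08 (adjusted p = 0.354), without overlap in either. Ndufa8, a subunit facing the intermembrane space, read 14.95, 14.97 and 15.07 at P21 and 14.77, 14.81 and 14.81 at P49, a difference of -0.20 ± 0.08 (adjusted p = 0.364). Ndufs7 was 0.18 ± 0.08 higher at P49 (adjusted p = 0.465), from 14.91, 14.95 and 14.89 at P21, and Cox6a1 was 0.13 ± 0.07 higher, at 17.20, 17.11 and 17.20 (adjusted p = 0.582). The second probe set of Sdhc gave -0.36 ± 0.22, that of Ndufs7 0.16 ± 0.10 and that of Cox6a1 -0.17 ± 0.10. Ndufb1, a small membrane-arm subunit, spread widely at P21, at 10.16, 9.45 and 10.92, and read 10.90, 10.68 and 10.76 at P49. Its difference of 0.61 ± 0.31 had an adjusted p of 0.566.

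Regulators of mitochondrial biogenesis were set beside the subunits. Of 18 tested, 1 was called at P49 and it was lower: Esrra, which encodes the estrogen-related receptor alpha, a nuclear receptor that binds the ERR motif. Esrra read 12.70, 13.02 and 12.58 in wild-type and 12.28, 12.17 and 12.26 in null animals at P49, a difference of -0.53 ± 0.12 (adjusted p = 0.035). At P21 it read 12.89, 12.66 and 12.75 against 12.27, 12.25 and 12.24, a difference of -0.51 ± 0.12 that did not pass the test (adjusted p = 0.263). The groups were separate at both ages. The call at P49 was lost in 8 of 24 alternative settings, with adjusted p up to 0.178. In 6 of these settings 1 array was left out: replicate 1 or 2 of the wild-type P49 group, any of the 3 P49 null arrays, or replicate 3 of the wild-type P21 group. The difference ran from -0.62 to -0.41 over the 24. Ppargc1a, the coactivator that works with this receptor, differed by 0.01 ± 0.15 at P49 (adjusted p = 0.996).

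Neighbouring gene lists were described in the same way at P49, with no test between lists. Assembly factors of the chain outside the symbol rule had 22 of 26 negative differences and a median of -0.14, and genes of the tricarboxylic acid cycle and pyruvate dehydrogenase had 13 of 15 and a median of -0.08. Mitochondrial ribosomal proteins had 56 of 74 negative differences, with a median of -0.06. Carriers, porins and creatine kinase had 8 of 10 and a median of -0.04. Cytochrome c and other electron carriers, with 3 of 7 negative and a median of 0.02, mitochondrial quality control genes, with 5 of 12 and 0.02, and glycolysis, with 8 of 14 and -0.01, did not lie to that side. Cytosolic ribosomal proteins lay on the other side, with 37 of 45 positive differences and a median of 0.11. None of these genes passed the test at P49.

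With age in null animals, a few genes of these lists passed, but the calls named with values were each lost in 3 to 9 of 24 alternative settings. Dlat, a pyruvate dehydrogenase subunit, fell by 0.44 (SE 0.11, adjusted p = 0.0333), and Ldha, a lactate dehydrogenase subunit, fell by 0.50 (SE 0.12, adjusted p = 0.0277). Pink1, a kinase of mitochondrial quality control, rose by 0.55 ± 0.12 (adjusted p = 0.0129). Of 74 mitochondrial ribosomal genes, Mrpl48 and Mrpl11 rose and Mrpl47 fell. Of 45 cytosolic ribosomal genes, 4 rose, among them Rpl13a by 0.42 ± 0.09 (adjusted p = 0.0127), and none fell. Without the 3 doubtful arrays Dlat was at -0.07 (adjusted p = 0.789), and with arrays centred on their medians Rpl13a was at 0.17 (adjusted p = 0.315).

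**Figure D4:**
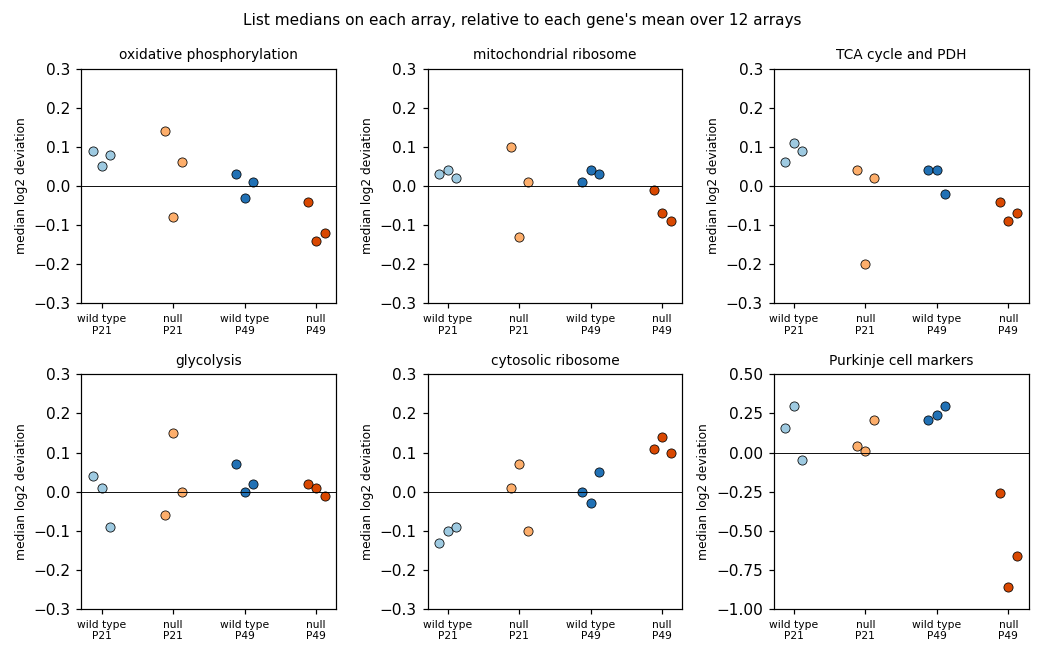
Each point is 1 array and gives the median, over the tested genes of a list, of log2 intensity minus each gene's mean over the 12 arrays. The oxidative phosphorylation list lies between -0.14 and -0.04 on the P49 null arrays and between -0.03 and 0.03 on the P49 wild-type arrays. The Purkinje panel has a wider axis than the others.

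By array, the median of the members was 0.09, 0.05 and 0.08 in wild-type animals at P21 and 0.14, -0.08 and 0.06 in null animals. At P49 it was 0.03, -0.03 and 0.01 in wild-type and -0.04, -0.14 and -0.12 in null animals. The P49 groups did not overlap, and the P21 null group spread over a wider range than any other. At P49, replicate 1 of the null group was nearest to wild type in the members (-0.04) and in the Purkinje list (-0.26). This array is labelled male, but its Xist was not low. Replicate 2 had the lowest value of all 12 arrays in 21 members (26.2%), against 8.44% of all genes tested, and also the lowest Purkinje median, at -0.86. Whether the order of these arrays in the members is tied to that in any marker list, or to sex, was not tested.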

How the data were processed

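Total RNA was extracted from 12 cerebella, 3 animals per group, and biotin-labelled target made from it was hybridised to Affymetrix arrays, per the labels. The authors deposited 1 linear intensity per probe set. How it was summarised is not given in the sources used here. Its mean without the top and bottom 2% was 5002 on every array. Arrays were quantile-normalised on log2(value + 16). Gene names came from the platform annotation, in which 20380 of 22690 probe sets name 1 gene, 691 several and 1555 none, and 64 are controls. A gene was its brightest single-gene probe set, kept where its mean normalised log2 value reached 9.93 (an intensity of 959, the 40th percentile). limma 3.58.1 in R 4.3.3 fitted 4 group means over 12 arrays (lmFit, eBayes with trend). The 5 contrasts were two-sided with Benjamini-Hochberg adjustment over 7835 genes and a threshold of 0.05. The fit was tested on simulated data in which 200 of 7835 genes were changed in the P49 null group. It called 74% of the genes changed by 1 on the log2 scale and 29% of those changed by 0.5. Of the calls, 5.5% were false.

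Members and gene lists were chosen with earlier results of these data known. Values per array are printed for called members, for the 3 smallest p-values per direction in each comparison, and for the tested genes of tissue-isoform sets. They are not always printed for both ages, and isoforms that were not tested are given by their mean intensity only. Other members are named as examples of their complex. From the other lists only some of the called genes are named, and few of the cell type markers. Lists are described by counts and medians with no set test. Promoter windows were matched by symbol, and motifs were searched on both strands. The NRF1 motif was shortened by 1 letter after its first count was seen, and the longer form had been found in smaller shares of both the members and all genes. The alternatives covered scaling, pseudocount, filter, probe set choice, arrays in the fit, the replicate number as a block and each array left out. Replicate numbers were not used to pair the animals, except in the block alternative. Over 18 pairs of same-numbered arrays the correlation of residuals ran from -0.18 to 0.19, which does not settle whether any were paired. P-values measure the spread between these individual animals.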

Additional observations from a re-analysis of the deposited data

How the results depend on the processing

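The precision of 3 arrays per group limits all values, and P21 values depend on replicate 2 of the null group. Under 24 alternatives, 12 of which left out 1 array, the 2 calls of Cox6b2 held in all, and no member was called at P21, for the change between ages or with age in wild-type animals.

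Members called lower at P49 numbered 1, or 2 (with Atp5md) when only the arrays of the 2 groups were fitted and without the 3 arrays of doubtful sex label. Leaving out single arrays gave 1 to 2. Members called lower with age in null animals numbered 3, and 8 on the values as deposited, 29 with arrays centred on their median, 6 with every probe set as its own feature, 1 with the arrays of the 2 groups alone, 5 with the replicate block and 12 (and 1 higher) without the 3 doubtful arrays. Leaving out single arrays gave 2 to 15. The share of all genes called was not counted under the alternatives, so these counts have no background beside them. The replicate block added Cox8a and Ndufa1 with age in null animals and changed no other call of a member.

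The members' median with age in null animals was -0.17 as deposited, -0.33 with arrays centred on their median and -0.22 without the 3 doubtful arrays, and -0.19 to -0.04 with single arrays left out. For the change between ages it was -0.13, -0.27 and -0.13, and -0.10 to 0.01 with single arrays left out. With arrays centred on their median it was 0.07 at P21 and -0.22 at P49. Without the 3 doubtful arrays, replicate 1 was the only P21 null array left, and it had the highest median of the members.

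Signs turned only in differences that had not passed the test. On the values as deposited, Atp5g3 became -0.04 for the change between ages and -0.13 with age in null animals, and Atp5g2 became -0.05 in the latter. With arrays centred on their median, Atp5g3 became 0.01 at P21, -0.17 for the change between ages and -0.29 with age in null animals (adjusted p = 0.044 by limma). In that setting Atp5g2 became -0.02 and Atp5d -0.04 at P49, and with age in null animals Sdhb became -0.03, Ndufs7 -0.12, Sdha -0.07 and Atp5g2 -0.21. Averaging probe sets moved Atp5g2 with age in null animals to 0.46 and turned it at P49 to -0.10 and Cox6a1 with age in wild-type animals to -0.02. With age in null animals, Atp5g3 became -0.02 without the 3 doubtful arrays and -0.03 without replicate 1 of the P49 null group, and Atp5g2 became 0 without replicate 1 of the P21 null group. With single arrays left out those values ranged from -0.03 to 0.04 for Atp5g3 and from 0 to 0.02 for Atp5g2. The cause was not tested. The counts of negative differences and the values of Cox6b1, Atp5g2 and Atp5g3 as partners of called members were added after seeing the data, as were the alternatives for Esrra, Dlat, Ldha, Pink1 and Rpl13a and the further counts without the 3 doubtful arrays.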
